A study of Mus musculus with 16 samples.

Results

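The red cell membrane genes described here were 8 genes chosen by symbol: Slc4a1, Epb42, Ank1, Sptb, Epb41, Rhag, Rhd and Ermap. The table of mCherry- bone marrow cells, called stroma, listed all 8 of them among 13344 genes. The table of mCherry+ leukemic cells, called tumor, listed 6 of them among 15080 genes, and Epb42 and Rhag were not analysed in tumor. BCR-ABL+, Arf-/- B-cell acute lymphoblastic leukemia (B-ALL) cells carrying mCherry were given by tail vein, 500000 per mouse, to wild type (WT) C57BL/6J mice or to C57BL/6J mice lacking IL-6 (IL-6 KO), bought at 6 to 8 weeks of age. The marrow was taken 8 days later without drug treatment, and 4 libraries were made for each of the 4 groups, WT stroma, IL-6 KO stroma, WT tumor and IL-6 KO tumor. The tumor cells were the same leukemia in both hosts, so that only the surrounding mouse lacked IL-6. Red blood cells were lysed before the sort, and stroma was every live mCherry- single cell that remained, with no gate for a cell type. RNA in these samples comes from mixed cells, and fewer red cell precursors cannot be told apart from less RNA per precursor.

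The red cell membrane is a lipid bilayer lying on a net of spectrin, and vertical links hold both together while the cell is squeezed through capillaries. Band 3 is the most abundant of its transport proteins, exchanges chloride for bicarbonate, and anchors the net through ankyrin. The Rh proteins form a second anchored complex, and the ends of spectrin are fixed to actin at junctions that hold the product of Epb41. Precursors in the bone marrow, the erythroblasts, make these proteins as they mature, and inherited loss of several of them gives hereditary spherocytosis or elliptocytosis. The transcription factors GATA1 and KLF1 drive many genes of this kind, through GATA and CACCC letters in their promoters and enhancers.

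Promoter sequences are shown because the genes share the erythroid lineage. RefSeq entries (GRCm38.p6) were found for 6 of the 8 genes, 8 entries in all since Epb41 has 3, and Slc4a1 and Ank1 are only named. Either AGATAA or TGATAA, on either strand, stood within 250 bases before the start in 4 of these 8 promoters, of 4 genes, and in 16.6% of the 32851 promoters of the same length. In 3 of them, Rhag, Rhd and Ermap, the first base of the match lay 31, 43 and 67 bases before the RefSeq start, and in Epb42 it lay 226 bases before it. In the GENCODE annotation Epb42 begins further upstream, at 121037072 on the minus strand, so its match lies closer to that start. The letters CCNCNCCC, on either strand, were in 3 of the 8 promoters, of Sptb and Epb41, against 45.93% of all promoters, and the longer CCACACCC was in 0 of the 8, against 3.2%. A match is only a description of letters, and absence holds only for these windows. The bases below run 5′ to 3′ on the strand of each gene, end before the first annotated exon, and have the GATA letters or their complement in capitals.
Rhd promoter, plus strand, GRCm38 chr4:134864286-134864535: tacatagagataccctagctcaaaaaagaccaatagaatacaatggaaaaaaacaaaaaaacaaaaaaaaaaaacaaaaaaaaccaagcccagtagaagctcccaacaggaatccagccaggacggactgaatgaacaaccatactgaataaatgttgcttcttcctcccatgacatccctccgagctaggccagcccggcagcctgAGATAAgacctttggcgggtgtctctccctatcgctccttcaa
Rhag promoter, plus strand, GRCm38 chr17:40810899-40811125: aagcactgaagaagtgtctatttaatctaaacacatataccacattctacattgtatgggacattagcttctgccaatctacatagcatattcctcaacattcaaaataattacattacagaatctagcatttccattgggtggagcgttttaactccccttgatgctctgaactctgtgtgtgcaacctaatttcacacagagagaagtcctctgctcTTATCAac
Ermap promoter, minus strand, GRCm38 chr4:119190012-119190245: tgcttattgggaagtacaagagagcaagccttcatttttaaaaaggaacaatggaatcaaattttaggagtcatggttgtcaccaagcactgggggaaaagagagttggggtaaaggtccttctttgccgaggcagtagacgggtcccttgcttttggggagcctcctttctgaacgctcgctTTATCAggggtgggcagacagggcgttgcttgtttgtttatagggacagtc
Epb42 upstream bases, minus strand, GRCm38 chr2:121037073-121037127: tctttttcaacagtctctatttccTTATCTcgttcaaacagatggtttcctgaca

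The deposited values were counts normalized within each table, so stroma and tumor are on different scales and were not tested against each other. The low values of a library repeated in steps, and the step is what 1 read was worth, which gives an estimated number of reads. In units of 1e+06, estimated reads were 11.9 to 41.3 in WT stroma, 12.9 to 32.1 in IL-6 KO stroma, 26.2 to 39.8 in WT tumor and 42.2 to 78.3 in IL-6 KO tumor. Rn7s1, an RNA of the signal recognition particle, and CT010467.1, annotated as ribosomal RNA, took most of the reads in IL-6 KO stroma. Without these 2 genes, 9.60 to 20.6 of these units were left in WT stroma and 2.74 to 9.15 in IL-6 KO stroma. IL-6 KO stroma 1 had the fewest of these, and in IL-6 KO stroma 4 CT010467.1 alone took 61.5% of the normalized counts. Results in stroma are given with and without these 2 libraries, a choice made after the values were seen. IL-6 KO stroma 3, which was kept, had 5.33 of these units left and 79.0% of its normalized counts in Rn7s1. Libraries 1 and 4 also had the lowest levels of the red cell membrane genes among the IL-6 KO stroma libraries. Leaving both out therefore raises the log2 fold changes of these genes by construction, and does not check the quality of the libraries. Nothing in the labels says that the libraries of a group are separate mice, so p-values measure only the spread between libraries.

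In WT stroma, the 8 genes were among the most abundant genes of the table. The normalized count of Slc4a1 stood at percentile 99.9 of all listed genes, and that of Rhag, the least abundant, at percentiles 92.5 to 96.5. Per kilobase of mean coding transcript length, Slc4a1 led with 5454 ± 1366 normalized counts (SD, n = 4), followed by Ermap with 2251 ± 331 (SD, n = 4). Epb41, Sptb and Ank1 came next with 1592 ± 390, 1574 ± 280 and 1445 ± 273 (SD, n = 4). Rhd had 954 ± 262, Epb42 694 ± 73.3 and Rhag 487 ± 141 per kilobase (SD, n = 4). Only Slc4a1 was clear of its neighbour in this order, since its lowest library, 4406 per kilobase, was above the highest of Ermap, 2616. The ranges of every later pair of neighbours overlapped. The places of Ermap and Epb41 depend on the transcript length used, because with the longest transcript they had 806 and 890 per kilobase and ranked 6 and 5 of 8. By mean length Slc4a1 and Ermap again came first in IL-6 KO stroma (Ermap ranked 4 with the longest transcript), Epb42 and Rhag last, and Epb41 had 595 ± 138 per kilobase (SD, n = 4). The IL-6 KO ranges of every pair of neighbours in this order overlapped, so no place in it was resolved. This held for Slc4a1 too, whose lowest library, 1864 per kilobase, was under the highest of Ermap, 3430.

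The comparison of hosts asks how the marrow around the leukemia differs when the host cannot make IL-6. In stroma all 8 genes had a log2 fold change (IL-6 KO over WT, given below with its standard error, SE) below 0, as did 50.6% of the 12202 genes tested. None of the 8 passed an adjusted p of 0.05 (limma on log2(normalized count + 1), Benjamini-Hochberg over all genes), and 0.0082% of all genes did, which is 1 gene. At an unadjusted p under 0.05, 4 of the 8 genes were lower in IL-6 KO stroma, Epb41, Epb42, Rhd and Rhag, against 5.2% of all genes in that direction. The libraries of the hosts did not overlap for 2 of the 8, Epb41 and Rhag, both lower, against 3.25% of all genes. The median log2 fold change was -0.92 over the 8 genes and -0.01 over all genes. In simulated stroma data the test recovered 0 of 100 genes changed by a log2 of 1 and 8 of 100 changed by a log2 of 2. Differences of this size were thus mostly not detectable with these libraries for genes drawn at random from all levels. The 8 genes are abundant, and recovery for genes like them was not measured.

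**Figure D1:**
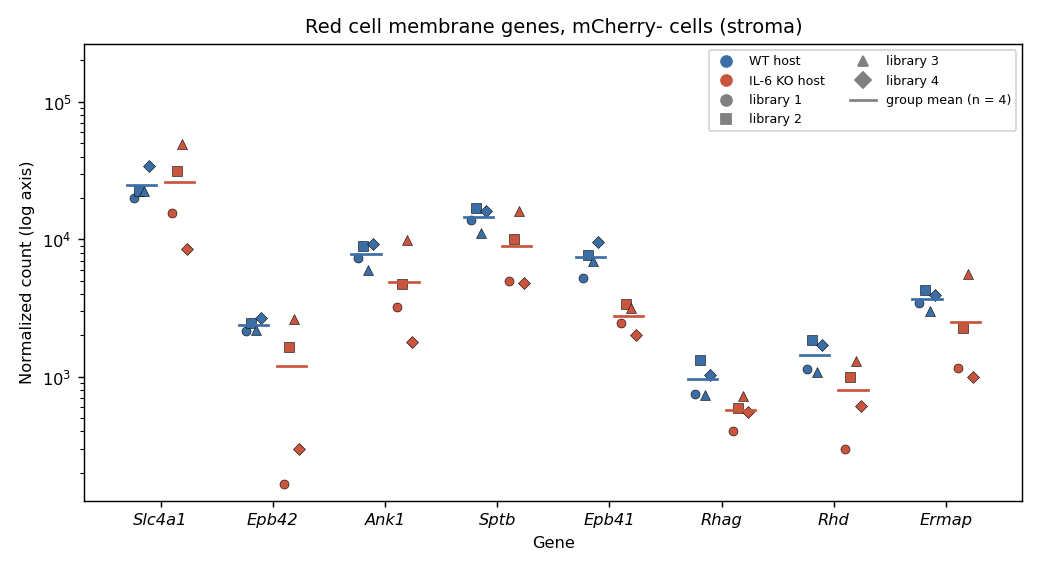
Normalized counts (log axis) of the 8 genes in each stroma library, blue for WT and red for IL-6 KO hosts, with 1 symbol per library number and a line at the mean of each group (n = 4). Epb41 and Rhag are the genes whose groups do not overlap, and IL-6 KO libraries 1 and 4 lie lowest in most of the others.

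Slc4a1 encodes band 3 itself, and lies on chromosome 11 at 102348824 to 102366203 (GRCm38, minus strand). WT stroma 1 to 4 held 20024, 22606, 22598 and 33923 normalized counts of it, against 15531, 31293, 49594 and 8472 in IL-6 KO stroma 1 to 4. The IL-6 KO libraries thus lay on both sides of the WT range, 2 below it and 1 above it. The log2 fold change was -0.19 (SE 0.49, limma adjusted p = 0.934), the smallest in size of the 8 genes, and its 95% interval ran from -1.26 to 0.88. The arithmetic mean went the other way, with 24788 ± 6210 in WT and 26222 ± 18269 in IL-6 KO stroma (SD, n = 4). Leaving out IL-6 KO stroma 3 gave -0.60 in log2, leaving out library 4 gave 0.25, and leaving out libraries 1 and 4 gave 0.70.

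Epb42, on chromosome 2 at 121017891 to 121037072 (minus strand), encodes a membrane skeleton protein that binds band 3 and ankyrin. It was counted at 2147, 2444, 2185 and 2683 in WT stroma, against 167, 1642, 2653 and 298 in IL-6 KO stroma. IL-6 KO stroma 3 lay inside the WT range, and the libraries 1 and 4 lay far under it, on about 49 and 261 estimated reads. The log2 fold change of -1.78 was the furthest from 0 among the 8 genes, with a SE of 0.71 (limma adjusted p = 0.476). Leaving out IL-6 KO stroma 1 gave -1.11, and leaving out libraries 1 and 4 gave -0.17.

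Ank1 encodes the ankyrin that joins band 3 to spectrin, on chromosome 8 at 22974844 to 23150497 (plus strand). It was counted at 7366, 8914, 5988 and 9193 in WT stroma, against 3210, 4711, 9869 and 1777 in IL-6 KO stroma. In the IL-6 KO host 3 libraries were under the WT range and library 3 was above it. The log2 fold change was -0.94 (SE 0.45, limma adjusted p = 0.554). Leaving out IL-6 KO stroma 3 gave -1.37 (limma adjusted p = 0.168), leaving out library 4 gave -0.55, and leaving out libraries 1 and 4 gave -0.19. Ank1 shares a stretch of at least 150 bases at 97% identity or more with its antisense gene Gm15816. The labels name a directional library kit, but whether the counting used strand is not given in the sources used here, so reads of the pair may not be separated. The other 7 genes shared no such stretch with another gene.

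Sptb encodes the beta spectrin of red cells, a main strand of the net under the membrane, and lies on chromosome 12 at 76580488 to 76710547 (minus strand). Counts of 13887, 16922, 11181 and 16164 in WT stroma stood against 4986, 10055, 16182 and 4824 in IL-6 KO stroma, all normalized. Only IL-6 KO stroma 3 was inside the WT range, and the other libraries were below it. For Sptb this came to -0.86 in log2 (SE 0.40, limma adjusted p = 0.552), and to -0.17 without IL-6 KO stroma 1 and 4.

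Epb41 encodes the protein that ties spectrin to actin and to glycophorin C, and lies on chromosome 4 at 131923413 to 132075321 (minus strand). It was counted at 5246, 7713, 6966 and 9615 in WT stroma, against 2442, 3391, 3179 and 2018 in IL-6 KO stroma. Every IL-6 KO library was below every WT library, library 3 included, in which most of the other genes were near their WT level. The means were 7385 ± 1810 and 2757 ± 639 (SD, n = 4), and the log2 fold change was -1.42 with an SE of 0.30. By unadjusted p the gene ranked 17th of all genes tested, and its adjusted p was 0.298 (limma). Leaving out any 1 library gave -1.57 to -1.28, and leaving out IL-6 KO stroma 1 and 4 gave -1.14 (limma adjusted p = 0.383).

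Rhag and Rhd encode the Rh-associated glycoprotein, which carries ammonia and gases, and the Rh blood group protein that it brings to the membrane. Rhag lies on chromosome 17 at 40811126 to 40840754 and Rhd on chromosome 4 at 134864536 to 134896172, both on the plus strand. Rhag had normalized counts of 747, 1315, 732 and 1033 in WT stroma, against 405, 596, 723 and 558 in IL-6 KO stroma. Its groups did not overlap, but the highest IL-6 KO library, 723, was next to the lowest WT library, 732. Rhag differed by -0.73 in log2 (SE 0.32, limma adjusted p = 0.527), and -0.50 without IL-6 KO stroma 1 and 4. Rhd had normalized counts of 1137, 1866, 1075 and 1698 in WT stroma, against 298, 995, 1302 and 608 in IL-6 KO stroma. IL-6 KO stroma 3 was inside the WT range and the other libraries below it, and library 1 was furthest from it, on about 88 estimated reads. Rhd came to -1.01 in log2 (SE 0.43, limma adjusted p = 0.514), -0.60 leaving out IL-6 KO stroma 1, and -0.30 leaving out libraries 1 and 4.

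Ermap, on chromosome 4 at 119175457 to 119190011 (minus strand), encodes an erythroid membrane protein of the immunoglobulin superfamily that carries the Scianna blood group in people. The WT libraries had normalized counts of 3462, 4263, 3025 and 3921, against 1167, 2263, 5588 and 995 in the IL-6 KO libraries. As for Ank1, 3 IL-6 KO libraries were under the WT range and library 3 was above it. In log2 the difference was -0.89 (SE 0.47, limma adjusted p = 0.582). Leaving out IL-6 KO stroma 3 gave -1.40 (limma adjusted p = 0.167), leaving out library 4 gave -0.57, and leaving out libraries 1 and 4 gave -0.03.

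Within IL-6 KO stroma most of the 8 genes were low in the same libraries. The median difference of the 8 genes from their WT means, in log2, was -1.54, -0.58, 0.17 and -1.71 in IL-6 KO stroma 1 to 4, and ran from -0.30 to 0.22 in the WT libraries. A reference of 7 other erythroid genes, among them Alas2, Klf1, Hemgn, Epor and Trim10, had mean log2 levels of 10.5 to 11.2 in WT stroma and of 9.57, 10.6, 11.1 and 9.68 in IL-6 KO stroma 1 to 4. The libraries with low membrane genes were therefore also those with a low erythroid reference, and their part in the result was not tested. Taken relative to this reference, the log2 fold changes were 0.53 for Slc4a1, -0.01 for Rhag, -0.14 for Sptb, -0.17 for Ermap, -0.22 for Ank1, -0.29 for Rhd, -0.70 for Epb41 and -1.06 for Epb42, and none was called. Leaving out IL-6 KO stroma 3 alone moved all 8 log2 fold changes down, to between -2.44 for Epb42 and -0.60 for Slc4a1, and none was called. Without IL-6 KO stroma 1 and 4, 7 of the 8 genes still had a log2 fold change below 0 (50.4% of all genes), with a median of -0.18 against -0.01. Of the 8, 1 gene, Epb41, was then lower at an unadjusted p under 0.05 (4.39% of all genes), 2 did not overlap (9.38%), and none was called (0.0664%).

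**Figure D2:**
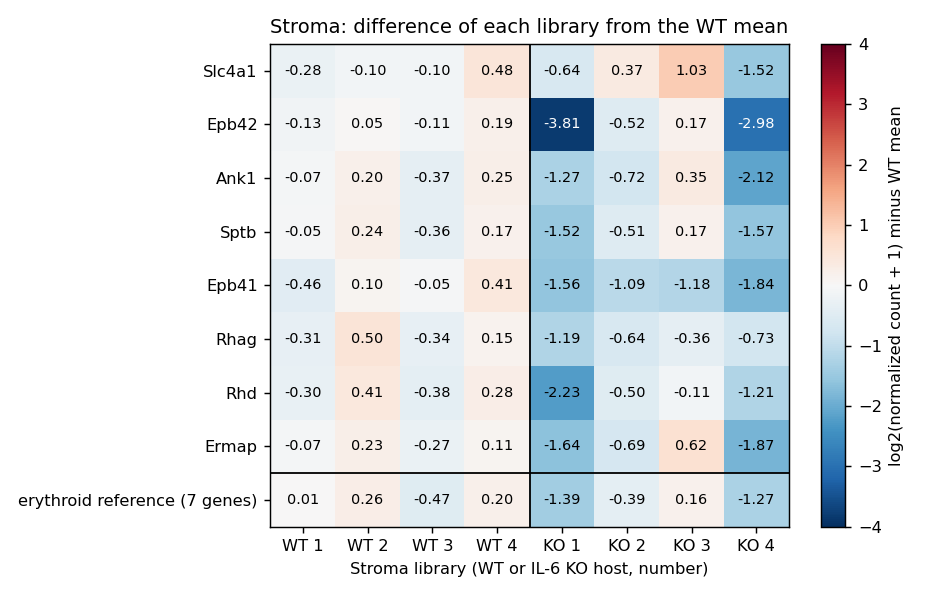
Difference of log2(normalized count + 1) from the WT mean for each of the 8 genes and the mean of 7 erythroid reference genes (rows) in each of the 8 stroma libraries (columns), blue for lower and red for higher values. IL-6 KO libraries 1 and 4 are low throughout, library 3 is near or above WT except for Epb41, -1.18, and Rhag, -0.36.

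Against Hba-a1, the globin gene with the highest counts in stroma, Slc4a1 amounted to 39.6% to 47.6% of the globin value in WT stroma. In IL-6 KO stroma it amounted to 75.5%, 75.4%, 60.8% and 38.2%, so that 3 of the 4 libraries were above the WT range. Epb42 was 3.77% to 4.32% of Hba-a1 in WT stroma, against 0.81%, 3.96%, 3.25% and 1.34% in the IL-6 KO libraries. Slc4a1 and Epb42 therefore did not keep fixed proportions to globin. They went opposite ways in IL-6 KO stroma 1, where Epb42 rested on about 49 estimated reads. In WT and IL-6 KO stroma the medians were 25.2% and 23.0% for Sptb, 13.8% and 11.7% for Ank1, and 6.44% and 5.56% for Ermap. They were 2.33% and 2.00% for Rhd, 1.47% and 1.70% for Rhag, and 13.5% and 8.64% for Epb41. Across the 8 libraries the correlation of each gene with the mean of the other 7, on log2 z-scores, was r = 0.99 for Sptb, 0.71 for Slc4a1 and 0.78 for Epb41, with the other genes between 0.82 and 0.96. These points share their libraries and depths, and the genotypes are pooled in them. The genes most like the mean of the 8 were Ptp4a3 (r = 0.997), Bcl2l1 (r = 0.990), Tubb4b, Ube2o, Mkrn1, H2ac18, Slc25a37 and Ank (r = 0.984), over the same 8 libraries. Bcl2l1 encodes the survival protein BCL-XL, Slc25a37 the mitochondrial iron importer mitoferrin and Ube2o a ubiquitin ligase of reticulocytes.

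A wider list held 33 other genes of the red cell membrane, of which 32 were tested in stroma. Of these, 28 had a log2 fold change below 0 and 4 above 0, none was called, and the median was -0.79. At an unadjusted p under 0.05, 12 of the 32 were lower in IL-6 KO stroma and none higher, and 5 of the 32 did not overlap between the hosts, against the 5.2% and 3.25% of all genes. Among the 8 with the smallest p were Art4, Slc14a1, Abcg2, Gypc, Tspan33 and Ackr1. Art4, an ADP-ribosyltransferase gene of the Dombrock blood group, had normalized counts of 259, 309, 192 and 314 in WT stroma, against 44.8, 108, 140.4 and 67.7 in IL-6 KO stroma. Its libraries did not overlap, and the log2 fold change was -1.66 (SE 0.44, limma adjusted p = 0.324). Slc14a1, the Kidd urea transporter, had -1.17 (SE 0.39, limma adjusted p = 0.432), and Gypc, the glycophorin held by the product of Epb41, had -1.28 (SE 0.46, limma adjusted p = 0.440). Without IL-6 KO stroma 1 and 4, 20 of the 32 genes were below 0 (62.5%, against 50.4% of all genes), with a median of -0.20. Of the 32, 2 were then lower at an unadjusted p under 0.05 (6.25%, against 4.39%) and 5 were lower without overlap (15.6%, against 9.38%).

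Most of the other erythroid genes listed had log2 fold changes in the same direction in stroma, again with none called, and Epor, the erythropoietin receptor gene, had 0.13. The 3 globin genes listed, Hba-a1, Hba-a2 and Hbb-bt, had -0.68, -0.49 and -0.90. Of 8 heme synthesis genes 7 were below 0 (median -0.66), among them Alas2 at -0.73 and Fech, which inserts the iron, at -0.86. Of 9 erythroid transcription factors 8 were below 0 (median -0.30), and Zfpm1, the partner of GATA1 also called FOG1, had -1.34 (SE 0.32, limma adjusted p = 0.302). Tal1 had -1.13, Lmo2 -0.27, and Foxo3, the factor with the highest mean, 0.42 (SE 0.30, limma adjusted p = 0.692). Without IL-6 KO stroma 1 and 4 the medians were 0.12, 0.01 and -0.09. Relatives of the 8 genes that are used outside red cells had a median of 0.39, with 6 of 10 above 0. Among these, the spectrin gene Sptan1 had 1.18 (SE 0.58, limma adjusted p = 0.561), the spectrin gene Sptbn1 0.22, the anion exchanger Slc4a2 0.87 and Epb41l2 -0.09. Neutrophil markers, 8 of 10 above 0 with a median of 0.53, summed to 7101 to 13215 normalized counts in WT stroma. None of them was at 0 in every library of a group. Of the IL-6 KO stroma sums, libraries 1, 2 and 4 had 31033, 29985 and 25049, and library 3, where the membrane genes were high, had 6636. Without IL-6 KO stroma 1 and 4, 5 of the 10 were above 0 and 5 below it, with a median of 0.08. Their part in the result was not tested.

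In tumor, Epb41 was the only abundant gene of the 6. It is used in many cell types, and its normalized count stood at percentiles 89.8 to 92.9 of all genes in WT tumor. The other 5 genes listed stood between percentiles 3.3 and 58.3 in the WT tumor libraries. Per kilobase Epb41 had 1096 ± 164 normalized counts in WT tumor and 1147 ± 46.7 in IL-6 KO tumor (SD, n = 4). Slc4a1 was next with 77.4 ± 76.4 and 33.2 ± 19.4, and Rhd followed with 21.5 ± 6.5 and 23.7 ± 9.4 (SD, n = 4), with ranges that overlapped in WT tumor. Ermap, Ank1 and Sptb had 16.3, 8.4 and 5.3 per kilobase in WT tumor and could not be ordered beyond their spread.

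None of the 6 genes passed an adjusted p of 0.05 between the hosts in tumor, where 19.8% of the 14493 genes tested did. None passed an unadjusted p of 0.05 either (35.1% of all genes), and none had groups that did not overlap (25.6%). Of the 6, 3 were below 0 and 3 above it, (50.7% of all genes were below 0), with a median log2 fold change of -0.04 over the 6 and of -0.01 over all genes. In simulated tumor data the test recovered 64 of 100 genes changed by a log2 of 1 and 83 of 100 changed by a log2 of 2. Those genes were drawn at random from all levels. The SE of the 6 genes ran from 0.10 for Epb41 to 0.78 for Slc4a1, and recovery for low and variable genes like most of them was not measured. Whether the difference between hosts differs between stroma and tumor was not tested.

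**Figure D3:**
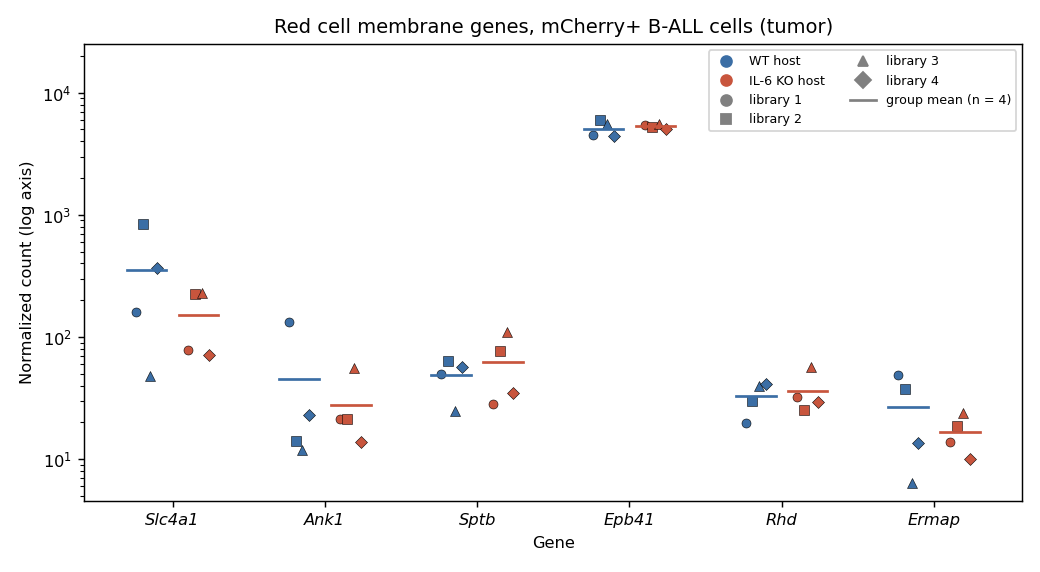
Normalized counts (log axis) of the 6 genes listed in tumor, in each library, with colors, symbols and lines as for stroma. Epb41 is far above the others and tight in both hosts, and the remaining genes spread widely within each host.

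Epb41 had normalized counts of 4487, 5937, 5511 and 4405 in WT tumor and of 5421, 5249, 5558 and 5058 in IL-6 KO tumor. The IL-6 KO libraries lay inside the WT range, and the log2 fold change was 0.08 (SE 0.10, limma adjusted p = 0.626), with a 95% interval of -0.15 to 0.30. Slc4a1 had 161, 834, 47.5 and 365 in WT tumor and 77.8, 223, 231 and 71.3 in IL-6 KO tumor. Its WT libraries alone spanned more than the IL-6 KO libraries did, and the log2 fold change of -0.75 (SE 0.78, limma adjusted p = 0.525) was -0.12 without WT tumor 2 and -1.48 without WT tumor 3. Ank1 had 133, 14.1, 12.0 and 22.9 normalized counts in WT tumor and 21.2, 21.1, 55.6 and 13.7 in IL-6 KO tumor. WT tumor 1 stood apart from the others, and the log2 fold change of Ank1 was -0.15 (SE 0.72, limma adjusted p = 0.902) with it and 0.60 without it.

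Sptb, Rhd and Ermap were counted on 6 to 140 estimated reads per tumor library. Sptb had 49.6, 64.1, 24.7 and 57.0 in WT tumor and 28.3, 76.3, 110.5 and 34.9 in IL-6 KO tumor, with IL-6 KO tumor 3 the highest. Rhd ran from 19.7 to 41.1 in WT tumor and from 25.3 to 56.8 in IL-6 KO tumor, and IL-6 KO tumor 3 was the only library above the WT range. Ermap had 49.1, 37.3, 6.4 and 13.7 in WT tumor and 13.9, 18.7, 24.0 and 10.1 in IL-6 KO tumor, and its IL-6 KO libraries lay inside the WT range. The log2 fold changes were 0.22 for Sptb (SE 0.46), 0.12 for Rhd (SE 0.34) and -0.34 for Ermap (SE 0.60), with limma adjusted p-values of 0.770, 0.83 and 0.725.

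**Figure D4:**
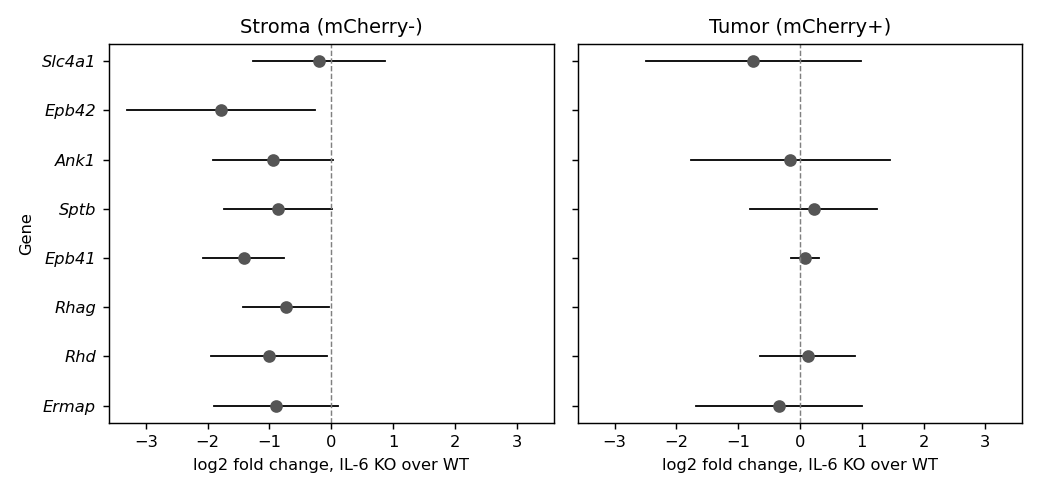
Log2 fold change of IL-6 KO over WT (points, n = 4 against 4) with 95% intervals from limma (lines) for each gene in stroma (left) and tumor (right), each from its own table. All 8 stroma points are below 0, from -1.78 to -0.19, but the stroma intervals of Slc4a1, Ank1, Sptb and Ermap include 0. All 6 tumor intervals include 0, that of Epb41 being the narrowest.

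In tumor, Ermap, Ank1, Sptb and Slc4a1 correlated positively with erythroid markers across libraries, and Epb41 and Rhd did so least. Across the 8 tumor libraries the correlations with Alas2 were r = 0.95 for Ermap, 0.84 for Ank1, 0.67 for Sptb, 0.56 for Slc4a1, -0.19 for Epb41 and -0.31 for Rhd. With Hba-a1 they were r = 0.73, 0.66, 0.88, 0.59, -0.05 and 0.10 in the same order of genes. The points share their libraries, and at these counts r is a description. Of the 10 erythroid markers 7 were listed in tumor, none of them at 0 in every library of a group. Their summed normalized counts were 440 to 1657 in WT tumor and 764 to 2710 in IL-6 KO tumor. Epor was not listed there, and the part of red cell precursors in the tumor sort was not tested. The 10 B lineage markers, which the leukemia should hold, summed to 143892 to 148932 in WT tumor and 156747 to 167172 in IL-6 KO tumor. In stroma the same 10 markers summed to 783 to 1574 and 542 to 1585, and 9 erythroid markers to 86716 to 125126 in WT and 36628 to 137319 in IL-6 KO. The stroma sums are on another scale than the tumor sums, and the erythroid markers listed differ. Each sum is therefore read only against others of its own table.

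Of the other red cell membrane genes, 27 were tested in tumor, 7 below 0 and 20 above it, with a median of 0.14. Of these 27 genes, 3 were called higher in IL-6 KO tumor, close to the 10.6% of all genes, and 1 was called lower, against 9.16%. The calls below therefore describe single genes and not the list. Piezo1, a mechanically gated cation channel, rose by 0.44 in log2 (SE 0.07, limma adjusted p = 0.00499), from 3731 to 5069 normalized counts. Slc29a1, a nucleoside transporter, rose by 0.45 (SE 0.08, limma adjusted p = 0.00522), and Bsg, which encodes basigin, by 0.39 (SE 0.11, limma adjusted p = 0.0383). Add2, the beta adducin gene, was low throughout, with 23.3, 22.0, 18.1 and 22.2 normalized counts in WT tumor and 2.1, 5.1, 4.9 and 11.6 in IL-6 KO tumor, and its log2 fold change was -1.87 (SE 0.48, limma adjusted p = 0.0248). Among relatives used outside red cells, Epb41l2 rose by 0.48 (SE 0.09, limma adjusted p = 0.00835). Ank3 had -2.14 (SE 0.45, limma adjusted p = 0.0120), with means of 31.9 in WT and 7.0 in IL-6 KO tumor. The IL-6 KO means of Ank3 and Add2, 7.0 and 5.9, were under the limit of 10. Both genes thus passed the filter only through their WT libraries, and these fold changes rest on low counts. Sptan1, Sptbn1 and Slc4a2 had 0.24, 0.08 and 0.15 and were not called. The 3 globin genes had 0.46, 0.40 and 0.45, and none of them and none of 8 heme synthesis genes was called. Of 8 erythroid transcription factors, only Nfe2 was called higher, at 1.40 (limma adjusted p = 0.0465), against 10.6% of all genes. Zfpm1, Ldb1, Foxo3 and Lmo2 had -0.01, 0.09, 0.12 and 0.03. Neutrophil markers were called higher for 9 of 10 genes, with sums of 4660 to 5157 in WT tumor and 7440 to 17869 in IL-6 KO tumor. None of these markers was at 0 in every library of a group. Their part in the results for Nfe2 and the membrane genes was not tested. The genes most like the mean of the 6 in tumor were Huwe1 (r = 0.968), Parpbp (r = 0.949), Rps27a, Dap3, Kxd1, Slx4ip, Gm9480 and 1700016A09Rik (r = 0.875), over 8 libraries. That mean stood for little in common. Each gene's correlation with the mean of the others was r = 0.80 for Sptb, 0.59 for Slc4a1 and 0.54 for Ermap. It was 0.18 for Ank1, -0.03 for Rhd and -0.05 for Epb41. The list is therefore only the top of a ranking of all genes.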

How the data were processed

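The authors sequenced RNA of sorted tumor (mCherry+) and stroma (mCherry-) in 16 libraries. Against mm10 the authors estimated transcript counts with salmon 1.3.0, correcting for GC content and sequence bias, and divided the counts per gene by size factors of DESeq2 1.28.1, in 1 deposited table per compartment. The deposited normalized counts are a scaled signal, of which 2.8% to 5.2% were whole multiples of the read step (tolerance 0.01), so whole reads were not recovered and count tests were not run. The authors' results tables hold means, log2 fold changes, Wald scores, p-values and adjusted p-values, and were not used.

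Groups came from the labels. Genes with a mean normalized count over 10 were tested within each table with limma 3.58.1 (R 4.3.3; lmFit, eBayes with trend) on log2(normalized count + 1), two-sided, genotype only, at a Benjamini-Hochberg adjusted p of 0.05; fold changes are on that scale. The test was tried on simulated data. Positions, lengths and copies (BLAST 2.17.0, transcripts) came from GENCODE vM21, in which 13338 of 13344 stroma and 15069 of 15080 tumor identifiers were found, and promoters from RefSeq. Lists, likeness and figures were made in Python 3.11.15 with matplotlib 3.10.9, pandas 2.3.3 and SciPy 1.17.1.

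The genes and lists were chosen with earlier results of these data known. Named were all 8 genes, the globins, up to 8 of the other red cell membrane genes with the smallest p per table, up to 4 genes of the other lists with the highest mean, and the 8 genes most correlated with the members' mean z-score. Results for 2 genes that this rule names are left out. Ank3, Nfe2 and genes shown for a call were added after their values were seen. Alternatives were pseudocounts, filters, scalings, library weights, a replicate block and left-out libraries.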

Additional observations from a re-analysis of the deposited data

Results flagged for a closer look

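Among the 28 groups of 4 libraries formed by the red cell membrane genes, 1 held a library apart from the other 3. Ank1 had 133 normalized counts in WT tumor 1, and the next highest WT tumor library had 22.9. The gap was 0.91 of the group's range, above Dixon's 95% critical value for 4 libraries, a limit that chance passes in about 1 of 20 groups. WT tumor 1 also held the highest Ermap value of the group, 49.1, and without that library the log2 fold change of Ank1 was 0.60.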

How the results depend on the processing

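Under the alternatives run, none of the red cell membrane genes tested was called, 8 in stroma and 6 in tumor, or 3 in tumor (Slc4a1, Epb41 and Sptb) with a mean normalized count over 50. In stroma 141 log2 fold changes kept their direction and 3 turned, all of Slc4a1, at 0.53 relative to the erythroid reference, 0.25 without IL-6 KO stroma 4 and 0.70 leaving out IL-6 KO stroma 1 and 4. Leaving out 1 library, Slc4a1 ran from -0.60 to 0.25. In tumor 86 kept their direction and 13 turned. Ank1 and Ermap became 0.15 and 0.0101 under quantile normalization, Sptb -0.0058 under array weights, and Epb41, Sptb and Rhd -0.35, -0.21 and -0.30 relative to the erythroid reference. Leaving out 1 tumor library, Ank1 ran from -0.54 to 0.60, Sptb from -0.12 to 0.52, Rhd from -0.11 to 0.26 and Ermap from -0.85 to 0.0702. The sign of Ank1 turned without WT tumor 1 or IL-6 KO tumor 4, that of Rhd without WT tumor 1 or IL-6 KO tumor 3, that of Ermap without WT tumor 1, and that of Sptb without WT tumor 3 or IL-6 KO tumor 3. Over all genes, the stroma count of 1 became 4 under array weights, 8 leaving out IL-6 KO stroma 1 and 4, and 1 to 3 leaving out 1 library. The tumor count of 2870 ran from 1569 to 3327 leaving out 1 library. The causes were not tested. Same-numbered libraries correlated at -0.03 to 0.13 in stroma and -0.02 to 0 in tumor, so the numbers were not taken as pairs. With the replicate number as a block, 1 gene was called in stroma and 2230 in tumor, and none of the red cell membrane genes. Few reads limit Epb42 and Rhd in IL-6 KO stroma 1 and most genes in tumor.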
